A study of Mus musculus with 3 samples.

Results

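The Ifitm genes were examined across the leukocytes of KP1 tumors: Ifitm1 (ENSMUSG00000025491), Ifitm2 (ENSMUSG00000060591), Ifitm3 (ENSMUSG00000025492) and Ifitm6 (ENSMUSG00000059108), 4 of the 33696 genes counted. They were chosen by their T cell ratios, which were among the highest for IL-10/2-Trikine over the mono-IL-10 library, so those T cell ratios are a description of how the genes were selected and are not tested. Wild-type F1 mice (B6129SF1/J in the study's methods) carried subcutaneous tumors grown from 500000 KP1 cells, a mouse small cell lung cancer line, and each library was 1 treatment. The mono-IL-10 library came from mice given 3 µg per dose of mono-IL-10, an engineered monomeric IL-10, intraperitoneally on alternate days, the first on day 7 and the last on day 19. The Trikine library came from mice given the same dose and schedule of IL-10/2-Trikine, in which mono-IL-10 is joined to a non-signaling IL-2 variant that recruits the IL-2 receptor beta chain. The Combo library came from mice given that Trikine together with an antibody to PD-1, 200 µg per dose on days 7, 11, 15 and 19. Sample titles and treatment fields name the antibody for Combo alone, while the shared protocol text, read literally, gives it to every mouse. The study's own text sets Combo against Trikine alone, and the groups are read that way here. The number of mice behind each library was not stated, no untreated library was analysed here, and treatment and library cannot be told apart.

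IFITM proteins are small membrane proteins that block the entry of enveloped viruses, Ifitm1 mainly at the cell surface and Ifitm2 and Ifitm3 mainly in endosomes and lysosomes. Their genes lie in a cluster, are classically induced by type I interferon and interferon-gamma, and are carried constitutively by many myeloid cells. IL-10 signals chiefly through STAT3 and the IL-2 receptor beta chain through STAT5, and STAT dimers recognise the GAS motif, whereas the ISRE is a motif of many type I interferon-induced genes.

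The promoters of the 4 genes are shown because the cytokines compared differ in STAT signaling. In the study the Trikine was designed to add STAT5 to the STAT3 signal of mono-IL-10. RefSeq sequences on build GRCm38.p6 run from 250 bases before to 50 bases after each start, 5′ to 3′ on the gene's own strand, with letters in capitals where a GAS (TTCNNNGAA) or an ISRE core (GAAANNGAA) was found on either strand. Ifitm1 lies at chr7:140967826-140968125 on the plus strand, and the other promoters lie on the minus strand, Ifitm2 at chr7:140955912-140956211, Ifitm3 at chr7:141010695-141010994 and Ifitm6 at chr7:141016843-141017142.
Ifitm1: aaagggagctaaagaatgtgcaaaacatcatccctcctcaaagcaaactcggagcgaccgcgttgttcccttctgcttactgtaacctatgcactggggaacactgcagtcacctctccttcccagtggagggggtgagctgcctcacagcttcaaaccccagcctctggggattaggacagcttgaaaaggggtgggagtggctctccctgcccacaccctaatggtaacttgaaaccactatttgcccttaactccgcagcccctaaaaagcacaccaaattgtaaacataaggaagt
Ifitm2: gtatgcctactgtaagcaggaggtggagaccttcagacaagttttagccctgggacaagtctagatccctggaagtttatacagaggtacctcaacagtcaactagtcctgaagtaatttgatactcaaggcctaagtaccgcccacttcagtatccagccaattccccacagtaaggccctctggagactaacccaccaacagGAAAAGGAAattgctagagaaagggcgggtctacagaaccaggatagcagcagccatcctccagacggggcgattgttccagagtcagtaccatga
Ifitm3: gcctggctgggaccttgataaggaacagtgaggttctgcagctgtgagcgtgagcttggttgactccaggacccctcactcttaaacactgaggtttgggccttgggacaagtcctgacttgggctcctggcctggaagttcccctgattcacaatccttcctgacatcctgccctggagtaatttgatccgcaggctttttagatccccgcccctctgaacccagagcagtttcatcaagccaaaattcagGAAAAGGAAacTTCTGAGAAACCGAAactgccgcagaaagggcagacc
Ifitm6: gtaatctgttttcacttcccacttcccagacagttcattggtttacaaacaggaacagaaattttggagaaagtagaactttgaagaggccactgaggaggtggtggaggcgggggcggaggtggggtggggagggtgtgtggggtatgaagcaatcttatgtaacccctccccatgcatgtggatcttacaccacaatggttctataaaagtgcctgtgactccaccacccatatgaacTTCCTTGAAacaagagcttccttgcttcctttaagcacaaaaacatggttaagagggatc
The Ifitm1 window held neither motif. Ifitm2 held 1 ISRE core at bases 205 to 213, Ifitm3 held 1 GAS at bases 264 to 272 and ISRE cores at bases 253 to 261 and 270 to 278, the latter overlapping the GAS, and Ifitm6 held 1 GAS at bases 241 to 249. Of 32851 RefSeq promoters of this length, 8.30% held a GAS and 8.56% an ISRE core. A match describes the letters only, and a window with no match says nothing of the factors.

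After filtering, 22235 mono-IL-10, 22707 Trikine and 26967 Combo cells were kept, with medians of 4774, 5562 and 4273 unique molecular identifiers (UMIs, counted molecules) per cell, and 137 to 180 cell barcodes were shared by any 2 libraries. The samples are labelled as T cells, but the sort took all live CD45+ cells. T cell-like clusters (8000, 9373 and 11218 cells in the mono-IL-10, Trikine and Combo libraries) carried Cd3e in 84.98%, 89.6% and 87.3% of cells. Monocyte/macrophage-like clusters held 8014, 5086 and 8288 cells and NK cell-like clusters 1320, 4948 and 4216 cells. Levels are in CPM, which is how many UMIs a gene had per 1e6 UMIs of a class of cells, and differences are log2 ratios of 2 levels. Intervals are 95% exact intervals that cover counting error only. With 1 library per group there was no test of treatment, cells of a library are not replicates, and a ratio of at least 2-fold served as a fixed mark of size. Both comparisons with mono-IL-10 share that library.

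In T cell-like cells the levels of 3 members were several times higher in both Trikine-treated libraries than with mono-IL-10. The Ifitm1 level was 97.1 CPM with mono-IL-10, 552 with Trikine and 547 with Combo. The Ifitm2 level was 109, 727 and 658 CPM, and the Ifitm3 level was 59.1, 267 and 291 CPM, in the same order. Ifitm6 was near the bottom of the scale at 0.693, 2.01 and 1.496 CPM, from 32, 163 and 114 UMIs. The Trikine over mono-IL-10 log2 ratios that chose the genes were 2.74 for Ifitm2, 2.51 for Ifitm1 and 2.17 for Ifitm3, ranks 1, 2 and 4 of the 3861 genes at 50 CPM or more. The uncharacterized gene 1500009L16Rik (2.49) stood at rank 3 and Rrm2 (1.60), a ribonucleotide reductase subunit, at rank 5, just outside the family. Ifitm6 did not reach 50 CPM, and its log2 ratio was 1.53. Leaving out cells with a UMI of another lineage kept only 1688, 1948 and 3040 T cell-like cells of the mono-IL-10, Trikine and Combo libraries. In that minority the values were larger for Ifitm2, at 3.596, and Ifitm3, at 2.88. Across these genes 1.55% were at least 2-fold higher, and nothing is read from the members' share of them, since that contrast chose them.

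The T cell levels of the Combo library were close to those of Trikine alone. The Combo over Trikine log2 ratios were −0.01 for Ifitm1 (ratio 0.992, interval 0.979 to 1.01), −0.14 for Ifitm2, 0.13 for Ifitm3 and −0.43 for Ifitm6. No member was 2-fold higher, against 0.219% of genes at 50 CPM or more and 3.22% of genes with at least 20 UMIs. The Ifitm6 value was −1.43 when cells with a UMI of another lineage were left out. It rested on 3.14 CPM with Trikine and 1.16 CPM with Combo, in the 1948 and 3040 cells that remained. Over mono-IL-10 the Combo log2 ratios were 2.49 for Ifitm1, 2.59 for Ifitm2 and 2.30 for Ifitm3, against 0.449% of genes at 2-fold or more, a comparison that shares the mono-IL-10 library with the one that chose the members. For Ifitm6, below 50 CPM and so outside that background, the Combo log2 ratio was 1.11, and it was −0.14 when cells with a UMI of another lineage were left out. The share of the members' transcripts held by T cells differed between the libraries. T cell-like cells held 22.4% of all Ifitm1 UMIs with mono-IL-10, 50.3% with Trikine and 70.3% with Combo, counted over kept cells. The same shares for Ifitm2 were 6.19%, 41.6% and 44.6%. Of the UMIs of all genes, T cell-like cells held 46159639 of 148672565, 81148953 of 192327074 and 76201468 of 164699110, so these shares also follow the make-up of each library. NK cell-like cells held 343, 21732 and 2530 Ifitm1 UMIs.

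**Figure D1:**
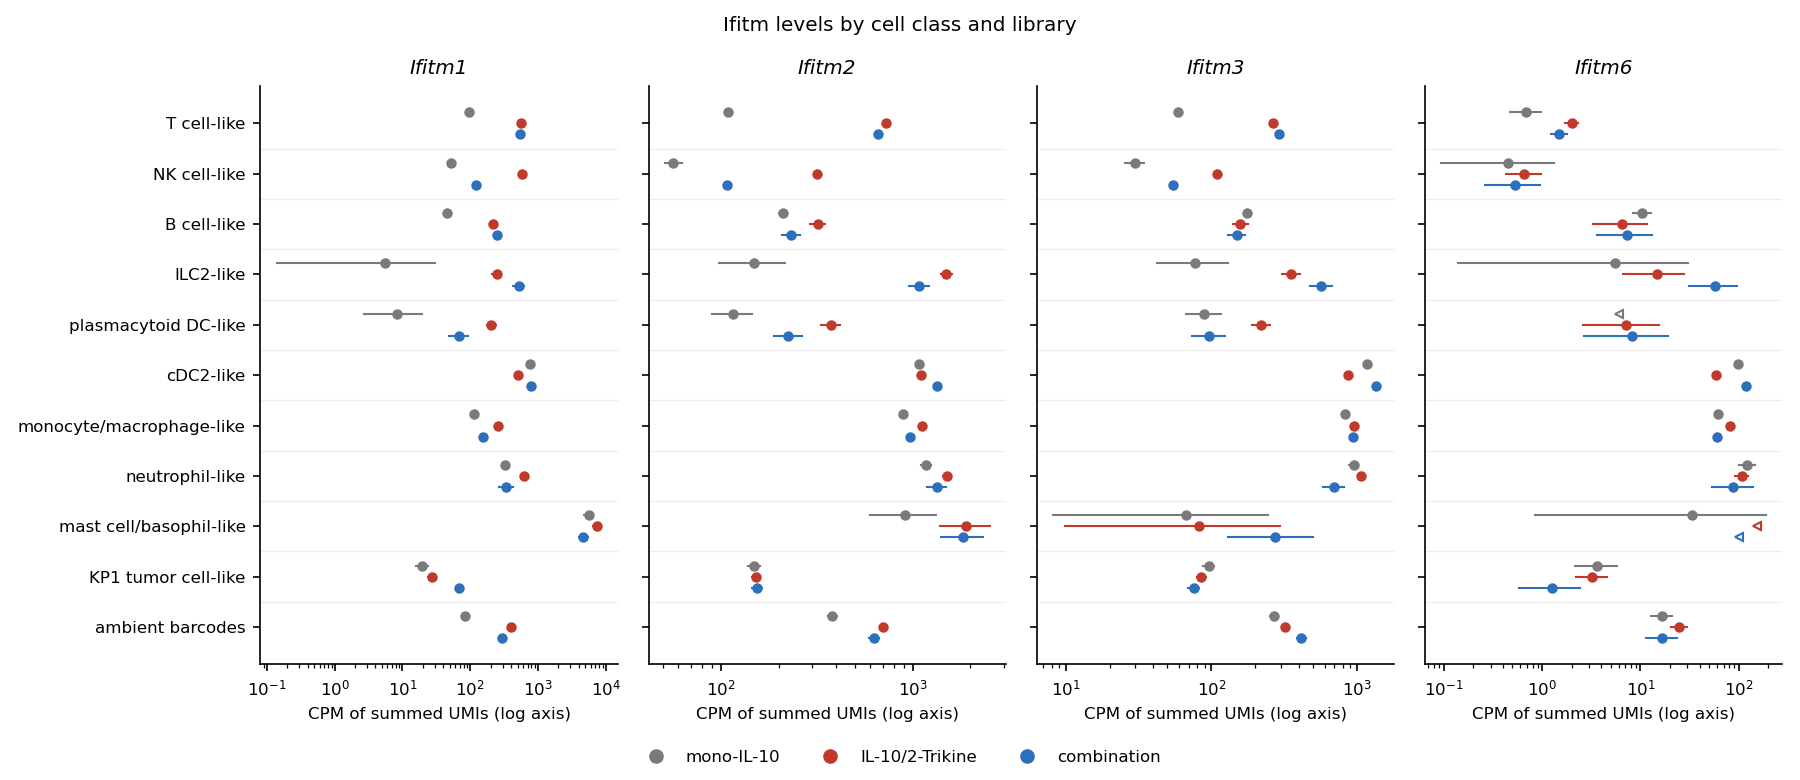
Levels of the Ifitm genes (CPM, log axis) by cell class in the mono-IL-10 (grey), Trikine (red) and Combo (blue, combination) libraries, with bars for the 95% counting intervals and open triangles for the upper bound where no UMI was counted. In T cell-like cells Ifitm1 stood at 97.1, 552 and 547 CPM, while in NK cell-like cells the Trikine library (574 CPM) stood apart from Combo (122 CPM).

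The difference was present in every T cell gate. Gates were set per cell on UMIs of Cd4, Cd8a, Cd8b1 and Foxp3. In CD8 cells the Ifitm1 level was 113, 660.5 and 585 CPM in the mono-IL-10, Trikine and Combo libraries, in Foxp3-negative CD4 cells 95.9, 543 and 688 CPM, and in Foxp3-positive cells 38.2, 263 and 259 CPM. T cells outside these gates had 69.4, 492 and 418 CPM. Foxp3-positive cells, which include regulatory T cells, thus carried the lowest Ifitm1 level of the gates in each library. Ifitm2 had another order. Its level was 53.9, 298 and 185 CPM in CD8 cells, 235, 1368 and 1077 CPM in Foxp3-negative CD4 cells and 178, 791 and 595 CPM in Foxp3-positive cells, so that helper-type CD4 cells were highest and CD8 cells lowest in every library. Ifitm3 followed 41.5, 143 and 122 CPM in CD8 cells, 127, 463 and 469 CPM in Foxp3-negative CD4 cells and 40.6, 224 and 224 CPM in Foxp3-positive cells.

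Within gates the Combo and Trikine libraries parted for Ifitm1 and Ifitm2. The Combo over Trikine log2 ratio of Ifitm1 was −0.18 in CD8 cells (ratio interval 0.865 to 0.905) and 0.34 in Foxp3-negative CD4 cells (1.24 to 1.30). For Ifitm2 it was −0.68 in CD8 cells and −0.35 in Foxp3-negative CD4 cells. Of the gates, Foxp3-negative CD4 cells had the highest Ifitm6 level in each library, at 1.05, 3.604 and 2.26 CPM, from 9, 72 and 61 UMIs. In CD8 cells Ifitm6 hardly differed, at 0.628, 0.724 and 0.643 CPM, from 16, 22 and 14 UMIs.

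**Figure D2:**
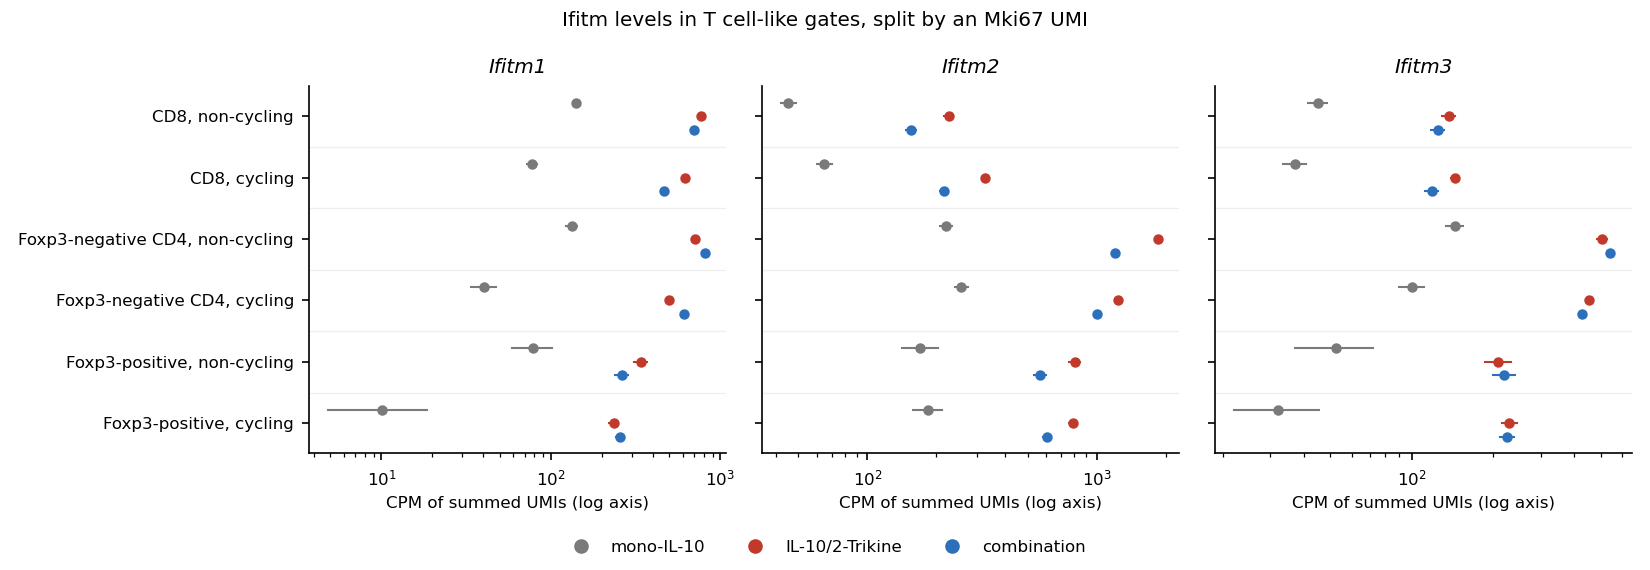
Levels (CPM, log axis) of Ifitm1, Ifitm2 and Ifitm3 in T cell-like cells by CD8, Foxp3-negative CD4 and Foxp3-positive gate and by cycling state (a cell with at least 1 Mki67 UMI), with bars for the 95% counting intervals, in the mono-IL-10 (grey), Trikine (red) and Combo (blue) libraries. In cycling Foxp3-negative CD4 cells Ifitm1 stood at 40.4, 499 and 611 CPM in that order.

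Cycling cells, marked by a UMI of the proliferation gene Mki67, were more frequent with Trikine (4349 of 9373 T cell-like cells) than with mono-IL-10 (1911 of 8000). Cycling T cells were deeper, with median depths of 8764, 11669 and 11245 UMIs against 3619, 3042 and 3235 in the mono-IL-10, Trikine and Combo libraries. The part of depth in this split was not tested. Ifitm1 was lower in cycling than in non-cycling cells of every library, while Ifitm2 and Ifitm3 went either way. The cycling over non-cycling ratio of the Ifitm1 level was 0.480 with mono-IL-10, 0.746 with Trikine and 0.721 with Combo. For Ifitm2 it was 1.23, 0.937 and 1.03, and for Ifitm3 0.729, 1.09 and 0.923. Non-cycling T cells alone carried 128, 687 and 659 CPM of Ifitm1 and 98.3, 765 and 645 CPM of Ifitm2. The lowest mono-IL-10 level was that of cycling Foxp3-positive cells, with 10 Ifitm1 UMIs (10.0 CPM), against 235 and 257 CPM with Trikine and Combo.

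Weighting gates and cycling states as in the mono-IL-10 library raised the Ifitm1 ratios and lowered those of Ifitm2 and Ifitm3. The Trikine over mono-IL-10 log2 ratios became 2.71 for Ifitm1, 2.56 for Ifitm2 and 1.99 for Ifitm3, beside 2.51, 2.74 and 2.17 unweighted. The Combo over mono-IL-10 log2 ratios became 2.56, 2.11 and 1.94, beside 2.49, 2.59 and 2.30 unweighted. Weighted by sub-clusters instead, the log2 ratios were 2.56, 2.33 and 1.83 for Trikine and 2.47, 2.03 and 1.83 for Combo. Across 10 sub-clusters of the T cell-like cells the Trikine over mono-IL-10 log2 ratio ran from 1.81 to 3.71 for Ifitm1, from 1.85 to 2.80 for Ifitm2 and from 0.65 to 2.94 for Ifitm3. The highest Ifitm2 levels with Trikine and Combo were in the sub-cluster led by Cd40lg and Tnfsf8, ligands of CD4 helper cells, at 348, 2433 and 1768 CPM, while with mono-IL-10 the sub-cluster led by Ccl3 and Csf1 was close to it at 354 CPM. In the Cd40lg sub-cluster Ifitm6 also had its highest T cell levels, at 2.63, 14.2 and 12.5 CPM. The lowest Ifitm1 levels were in the sub-cluster led by Dapl1 and Igfbp4, at 16.6, 59.6 and 87.9 CPM. There Ifitm2 was 29.8 CPM with mono-IL-10 and again 29.8 CPM with Combo, from 179 and 19 UMIs, and 144 CPM with Trikine.

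More T cells carried the transcripts, and for Ifitm2 each positive cell also carried more. Cells of at least 1000 UMIs were thinned to 1000, leaving 7305, 8914 and 10252 T cell-like cells in the mono-IL-10, Trikine and Combo libraries. Among these, Ifitm1 was seen in 4.23%, 20.4% and 18.2%, Ifitm2 in 6.31%, 30.8% and 28.6%, and Ifitm3 in 4.45%, 15.8% and 17.6%. Unthinned, the Ifitm1 shares were 7.48%, 35.4% and 29.3%. A positive cell held 2.80, 2.81 and 3.03 Ifitm1 UMIs on average after thinning, and 1.40, 2.21 and 1.97 Ifitm2 UMIs. In Foxp3-negative CD4 cells the Ifitm2 share was 11.4%, 57.1% and 49.5%, so that with Trikine more of these cells had a UMI than not. For comparison, B cell-like cells, thinned alike, had Ifitm2 in 8.75%, 9.30% and 8.33% and Ifitm1 in 1.09%, 6.40% and 7.35%, at median depths of 3017, 4700 and 4087 UMIs against 4015, 5147 and 4109 in T cell-like cells. The mono-IL-10 T cell share of Ifitm2 was below that of B cell-like cells, and the Trikine and Combo shares were above it. Ifitm1, Ifitm2 and Ifitm3 were seen in the same cells more often than their single shares would give. Cells with both Ifitm1 and Ifitm2 were 4.31 times as many as independent detection gives with mono-IL-10, 1.56 times with Trikine and 1.84 times with Combo, given as a description.

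In NK cell-like cells the Trikine and Combo libraries differed in Ifitm1, Ifitm2 and Ifitm3. This class did not enter the choice of the genes, but it came from the same libraries. With Trikine, 21303 of its 21732 Ifitm1 UMIs lay in cells with a Cd3d, Cd3e or Cd3g UMI. Its ratios are therefore no independent support. The Ifitm1 level of the whole class was 52.1 CPM with mono-IL-10, 574 with Trikine and 122 with Combo. The Ifitm2 level was 56.5, 319 and 108 CPM and the Ifitm3 level 29.7, 109.7 and 54.7 CPM. Thus in each case Combo lay between the others. The Trikine over mono-IL-10 log2 ratios were 3.46, 2.50 and 1.88, ranks 1, 3 and 10 of 3854 genes. All of these were past 2-fold, where 3.84% of genes were, but Ifitm3 entered the genes at 50 CPM or more through the Trikine library alone. The Combo over mono-IL-10 log2 ratios were 1.23, 0.93 and 0.88, and only Ifitm1 was past 2-fold, against 0.162% of genes. The Combo over Trikine log2 ratios were −2.24 (ratio 0.212, interval 0.204 to 0.221), −1.57 and −1.002. Ifitm1 was the lowest of 3662 genes in that comparison, all 3 members were at least 2-fold lower, against 1.34% of genes, and none was higher, against 0.874%. Ifitm6 had 3, 25 and 11 UMIs, 0.455, 0.660 and 0.529 CPM.

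**Figure D3:**
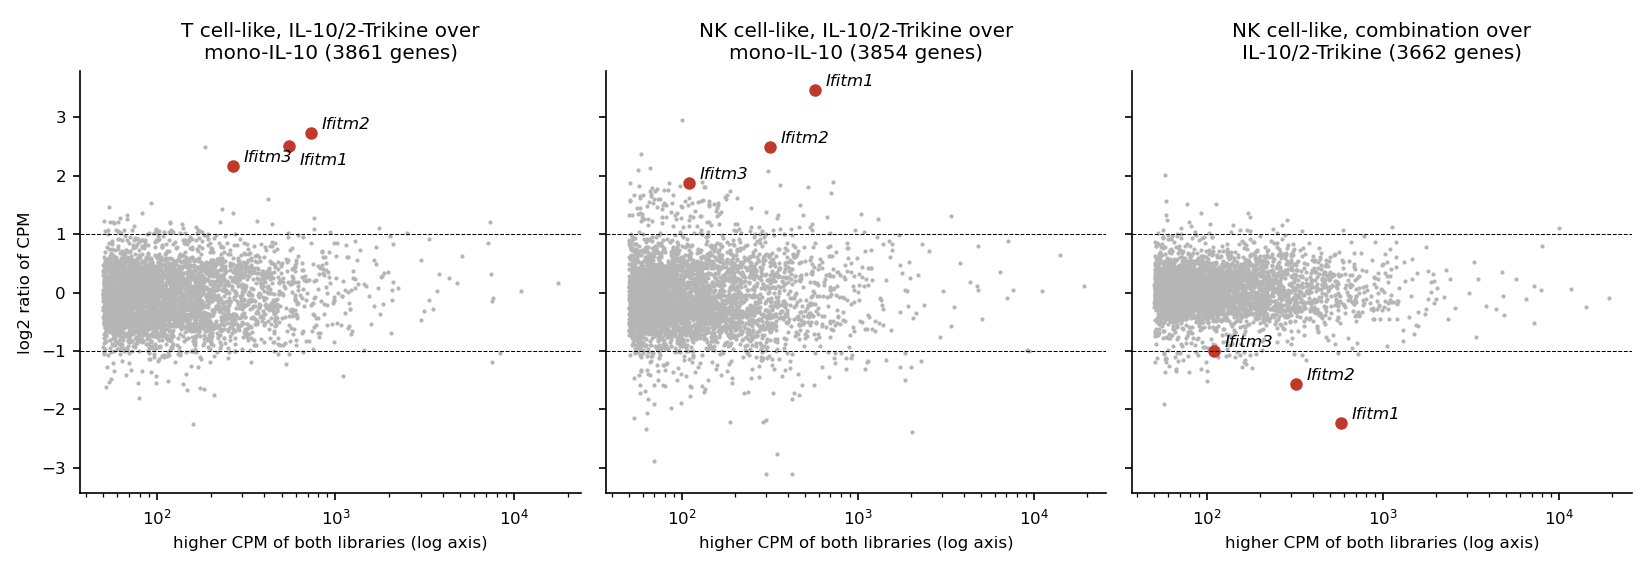
Each grey point is a gene at 50 CPM or more in at least 1 of the 2 libraries compared, with the log2 ratio of CPM on the vertical axis against the higher of both levels (CPM, log axis), for T cell-like and NK cell-like cells, with Ifitm1, Ifitm2 and Ifitm3 in red and dashed lines at 2-fold. Ifitm1 lay at 2.51 in T cell-like and at 3.46 in NK cell-like cells for Trikine over mono-IL-10, and at −2.24, below all other genes, in NK cell-like cells for Combo over Trikine.

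The NK cell-like class held 2 clusters, and the members were mainly in the one whose cells also carried T cell transcripts. The cluster led by Klra6, Klra5 and Klra1, receptor genes of the Ly49 family, had Cd3e in 67.4%, 79.1% and 63.6% of cells and the NK receptor gene Ncr1 in 27.7%, 31.4% and 32.2% in the mono-IL-10, Trikine and Combo libraries. The other cluster had Cd3e in 8.35%, 12.1% and 15.2% and Ncr1 in 79.5%, 71.1% and 64.0%. The Cd3e-rich cluster made up 506 of 1320, 3537 of 4948 and 1952 of 4216 NK cell-like cells, and it cannot be read as NK cells alone. In it the Ifitm1 level was 99.1, 636 and 147 CPM, the Ifitm2 level 101, 353 and 135 CPM and the Ifitm3 level 51.7, 120.1 and 70.2 CPM. In the Cd3e-poor cluster the Ifitm1 level was 6.85, 182 and 78.8 CPM, the Ifitm2 level 13.7, 97.7 and 60.6 CPM and the Ifitm3 level 8.63, 43.7 and 28.1 CPM. The order of the libraries was the same in both clusters, at lower levels in the Cd3e-poor cluster. Among Ifitm1, Ifitm2 and Ifitm3 in the strata by cluster and Cd3 UMI, Ifitm3 broke that order once, at 19.5, 58.1 and 63.8 CPM in cells of the Cd3e-rich cluster without a Cd3 UMI.

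Of the strata by cluster and Cd3 UMI, cells of the Cd3e-poor cluster with no Cd3 UMI at all were nearest to NK cells. They had 8.26, 46.0 and 27.1 CPM of Ifitm1, from 19, 143 and 114 UMIs, and 13.5, 51.8 and 23.8 CPM of Ifitm2. Their Trikine over mono-IL-10 ratio was 5.57 (3.44 to 9.52) for Ifitm1 and 3.84 (2.60 to 5.84) for Ifitm2, and the Combo over Trikine ratio 0.589 (0.457 to 0.759) and 0.459 (0.354 to 0.593). With free RNA, measured in barcodes of at most 50 UMIs, taken off up to the share that the class allows, the Trikine over mono-IL-10 ratios were 5.84 and 5.999 and the Combo over Trikine ratios 0.529 and 0.268. A stricter gate on NK markers with no T cell marker left 108, 224 and 293 cells of these clusters. They held 2, 5 and 18 Ifitm1 UMIs, or 5.59, 7.64 and 21.7 CPM, where free RNA could give 1.47, 6.32 and 6.13 CPM. The mono-IL-10 and Trikine libraries together held too few of these UMIs for a ratio. Combo stood above Trikine there, opposite to their order in the whole class, on few UMIs. Applied to all kept cells, the same gate gave 291, 12.2 and 90.8 CPM of Ifitm1, and 2 cDC2-like barcodes in the mono-IL-10 library carried 112 of those UMIs, as 5 such barcodes carried 63 in the Combo library. In cycling NK cell-like cells Ifitm1 was 118, 658 and 154 CPM and in non-cycling ones 23.3, 366 and 97.0 CPM. The cycling over non-cycling ratio was 5.09 with mono-IL-10, 1.80 with Trikine and 1.59 with Combo, while in T cell-like cells it was below 1 in every library. Cycling and non-cycling NK cell-like cells were divided unequally between the clusters, as 23.7%, 54.8% and 32.0% of the Cd3e-rich cluster and 10.6%, 12.3% and 8.39% of the Cd3e-poor cluster were cycling. Within clusters the ratio was 2.91 (2.27 to 3.76), 1.34 (1.29 to 1.39) and 1.09 (0.996 to 1.20) in the Cd3e-rich one and 1.34 (0.332 to 4.03), 2.40 (2.10 to 2.74) and 2.67 (2.24 to 3.19) in the Cd3e-poor one.

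**Figure D4:**
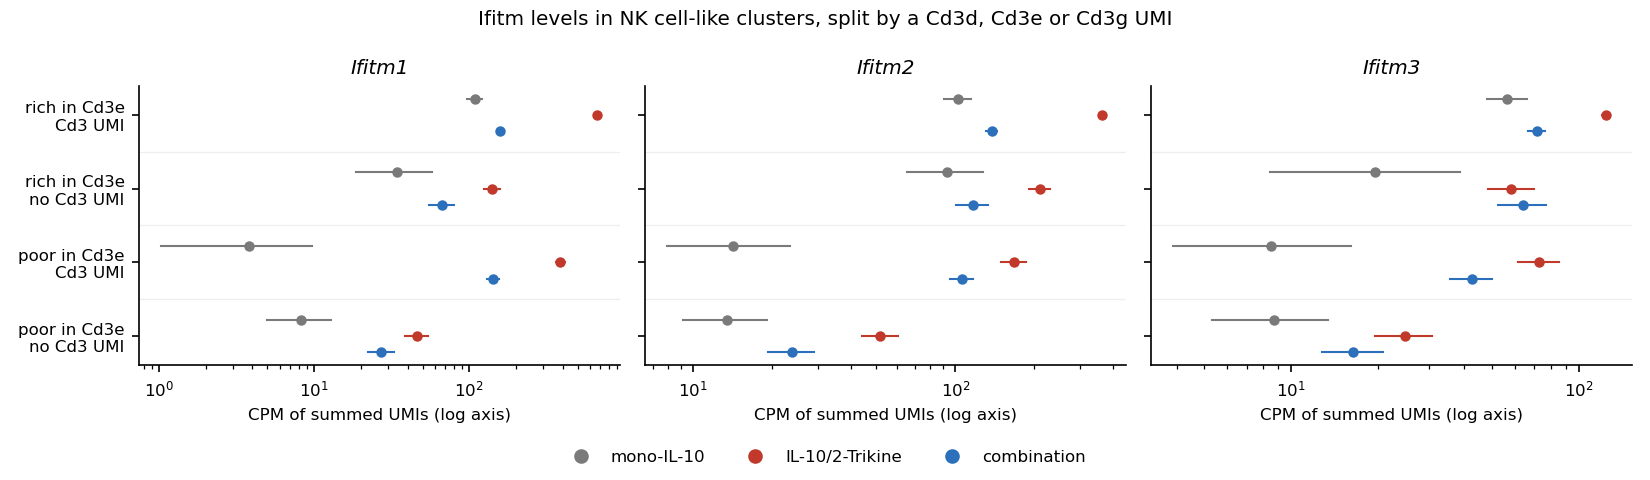
Levels (CPM, log axis) of Ifitm1, Ifitm2 and Ifitm3 in NK cell-like cells by cluster and by the presence of a Cd3d, Cd3e or Cd3g UMI, in the mono-IL-10 (grey), Trikine (red) and Combo (blue) libraries, with bars for the 95% counting intervals. Ifitm1 stood at 8.26, 46.0 and 27.1 CPM in cells of the Cd3e-poor cluster without such a UMI and at 109, 668 and 159 CPM in cells of the Cd3e-rich cluster that had such a UMI.

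Monocytes and macrophages carried Ifitm2, Ifitm3 and Ifitm6 at levels that differed less between the libraries than in T cell-like cells. In the monocyte/macrophage-like class the Ifitm2 level was 892, 1117 and 965 CPM and the Ifitm3 level 826, 961 and 938 CPM in the mono-IL-10, Trikine and Combo libraries. Ifitm6 was 61.6, 81.3 and 59.6 CPM. Only Ifitm1 passed 2-fold, at 115, 255 and 154 CPM (Trikine over mono-IL-10 log2 ratio 1.15), against 0.356% of genes. No member did for Combo over mono-IL-10, against 0.283% of genes, or for Combo over Trikine, against 0.0766%.

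The Ifitm1 difference of this class did not appear in its clusters with Chil3, a gene of inflammatory monocytes, among their 10 leading genes. The smaller of them, led by Saa3, held 163 cells, 92.0% with C1qa. Together these clusters had the highest Ifitm2, Ifitm3 and Ifitm6 levels of the class, and the levels were close in the 3 libraries. Ifitm1 was at 335, 287 and 274 CPM, Ifitm2 at 2286, 2259.6 and 2219 CPM, Ifitm3 at 2515, 2330.2 and 2365 CPM, and Ifitm6 at 269, 253 and 219.7 CPM. After thinning, at least 1 of Ifitm1, Ifitm2 and Ifitm3 was seen in 91.7%, 94.6% and 93.1% of these cells. In the C1q macrophage clusters Ifitm1 was 21.3, 47.2 and 28.5 CPM and Ifitm6 was 1.48, 2.37 and 0.668 CPM, while Ifitm2 was 593, 502 and 501 CPM. A cluster of macrophage-like barcodes that also carried Cd3e (1458, 839 and 1063 barcodes) had 88.2, 350.4 and 215 CPM of Ifitm1, and a cluster of shallow barcodes had 189.9, 488 and 494 CPM. With the highest-scoring doublets removed, no member of the class was past 2-fold, and the part of joint T cell and macrophage barcodes in the class value was not tested further.

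Neutrophil-like cells (331, 642 and 113 cells) had 327, 626 and 334 CPM of Ifitm1, 1179, 1506 and 1336 CPM of Ifitm2 and 122, 107 and 88.2 CPM of Ifitm6, with Ifitm1 highest in the Trikine library. In cDC2-like cells (561, 1229 and 640 cells), the dendritic cells that mainly prime CD4 T cells, Ifitm1 was 753, 502 and 798 CPM, Ifitm3 1179, 861 and 1360.4 CPM and Ifitm6 97.6, 58.7 and 118 CPM. These 3 genes were lowest with Trikine there, while Ifitm2 was 1083, 1101 and 1345 CPM, lowest with mono-IL-10, and Cd3e was counted in 55.1% of the barcodes of that cluster.

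In the rarer B cell-like, ILC2-like and plasmacytoid DC-like classes Ifitm1 was higher with both Trikine-containing treatments, and many of these barcodes also carried a Cd3d, Cd3e or Cd3g UMI. In B cell-like cells (1599, 172 and 246 cells) Ifitm1 was 45.3, 219 and 249.6 CPM, while Ifitm3 was 176, 158 and 149 CPM. In ILC2-like cells, innate producers of IL-5 and IL-13 (35, 116 and 37 cells), Ifitm1 gave 1, 151 and 127 UMIs and Ifitm2 149, 1501 and 1082 CPM. The Ifitm2 Trikine over mono-IL-10 ratio in ILC2-like cells was 10.1 (6.89 to 15.4). In plasmacytoid DC-like cells (142, 93 and 89 cells), known as producers of type I interferon, Ifitm1 was 8.22, 203 and 67.3 CPM, from 5, 171 and 41 UMIs. The plasmacytoid DC-like and NK cell-like classes thus had Ifitm1 in the order mono-IL-10, Combo, Trikine, and in the B cell-like and ILC2-like classes Ifitm1 was highest with Combo. Cd3e was counted in 20.9%, 26.7% and 25.2% of B cell-like, 20%, 24.1% and 54.1% of ILC2-like and 15.5%, 29.0% and 28.1% of plasmacytoid DC-like barcodes. Without a Cd3 UMI, Ifitm1 was 23.5, 83.3 and 33.0 CPM in B cell-like cells, from 83, 46 and 21 UMIs. In plasmacytoid DC-like cells it was then 1, 4 and 4 UMIs, and in ILC2-like cells 0, 7 and 56 UMIs. The 10 ILC2-like Combo cells without a Cd3 UMI stood at 1125 CPM, above the 365 CPM of those with a Cd3 UMI, while with Trikine the levels were 24.6 and 437 CPM. In the B cell-like and plasmacytoid DC-like classes the barcodes free of Cd3 UMIs thus held a small part of the Ifitm1 UMIs of the Trikine and Combo libraries. The median depth of plasmacytoid DC-like cells was 866 UMIs with mono-IL-10 and 5352 and 5754 with Trikine and Combo, and its part in the difference was not tested.

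KP1 tumor cell-like barcodes (795, 1000 and 963) differed little in Ifitm2, at 149, 152 and 155 CPM, and had 19.3, 27.2 and 68.1 CPM of Ifitm1. Mast cell/basophil-like cells (8, 11 and 12 cells) had 5595, 7428 and 4654 CPM of Ifitm1, and this was the highest Ifitm1 level of any class in every library, from 166, 181 and 171 UMIs. Clusters left unnamed (1430, 37 and 1145 barcodes) were shallow, with median depths of 686, 1017 and 761 UMIs, and held at most 0.282% of a library's Ifitm1 UMIs.

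Free RNA was measured in barcodes with at most 50 UMIs, of which there were 1074181, 1259630 and 1094542. There Ifitm1 was 83.5, 397 and 298 CPM in the mono-IL-10, Trikine and Combo libraries, Ifitm2 382, 703 and 627 CPM, Ifitm3 270.0, 321 and 415 CPM and Ifitm6 16.6, 24.8 and 16.6 CPM. So the free RNA of these libraries carried the same order of Ifitm1 as all kept cells together, at 135, 462 and 360 CPM. Single classes differed, as B cell-like, ILC2-like, KP1 tumor cell-like and cDC2-like cells were highest with Combo. Among genes of other lineages, Ebf1 with mono-IL-10 and C1qc with Trikine and Combo set the lowest bounds. They allowed at most 1.84%, 1.89% and 1.82% of the UMIs of T cell-like cells to be free RNA. At that fraction free RNA gives 1.59%, 1.36% and 0.994% of the T cell Ifitm1 level, and 6.45%, 1.83% and 1.74% of the Ifitm2 level. For Ifitm6 the share was 44.2%, 23.4% and 20.2%, from the few UMIs given above. In NK cell-like cells it was 2.82%, 1.10% and 5.04% of the Ifitm1 level, 11.9%, 3.52% and 11.98% of the Ifitm2 level, 15.9%, 4.66% and 15.6% of the Ifitm3 level and 64.1%, 59.9% and 64.5% of the Ifitm6 level. Summed markers of monocytes and macrophages in T cell-like cells were 519, 394 and 318 CPM, neutrophil markers 54.2, 39.0 and 42.2 CPM, and B cell markers 66.6, 46.3 and 36.2 CPM, and no marker of these lists was at 0. Much of the neutrophil and monocyte sums came from single genes that T cells can also carry, Il1r2 with 48.6, 29.4 and 37.7 CPM and Ly6c2 with 281, 253 and 168 CPM. Without the highest gene of each list the sums were 238, 141 and 150.02 CPM for monocytes and macrophages, 5.57, 9.6 and 4.51 CPM for neutrophils and 22.4, 14.8 and 12.7 CPM for B cells. The summed KP1 markers were 21.4, 25.0 and 33.8 CPM. The part of these UMIs in the Ifitm levels was not tested beyond the subtraction of free RNA.

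Most of the other interferon-induced genes listed lay the other way from the Ifitm genes in T cell-like cells for Trikine over mono-IL-10. That contrast chose the Ifitm genes, and the lists were set with earlier results of these data known, so the opposite directions are a description. Log2 ratios were above 0 for 0 of 33 type I and 4 of 21 interferon-gamma-induced genes, though fewer were 2-fold lower. Of 33 measured type I interferon-stimulated genes, 0 were at least 2-fold higher and 15 were at least 2-fold lower in T cell-like cells with Trikine than with mono-IL-10, beside 3.34% and 9.25% of all genes. The lists have no floor of 50 CPM, so the shares and medians beside them are over all genes with at least 20 UMIs in both libraries together. The median log2 ratio of the type I genes was −0.89, beside −0.18 over all genes. The antiviral genes Ifit3 (−2.73), Ifit3b (−2.65), Ifit1 (−2.26) and Mx1 (−2.24) were the lowest. Of 21 interferon-gamma-induced genes 0 were higher and 5 lower (median −0.61), and of 10 genes for interferon receptors and their signaling 0 were higher and 1 lower (median −0.66). Part of both lists was higher in the Combo library than with Trikine alone, where no Ifitm gene reached 2-fold. In Combo over Trikine, 8 of the 33 type I genes were at least 2-fold higher and 0 lower (median 0.61, beside 0.06 over all genes, of which 3.22% were higher and 1.4% lower), led by Oasl1 (1.62), Ifit1 (1.49), Rsad2 (1.31) and Isg15 (1.20). So were 5 of the 21 interferon-gamma-induced genes (median 0.50), led by Iigp1 (1.48) and Gbp6 (1.33), both interferon-induced GTPases, but 0 of the 10 receptor and signaling genes. In NK cell-like cells 0 of 32 type I genes were higher and 9 lower with Trikine (median −0.63), beside 6.27% and 7.98% of all genes, and 5 were higher and 0 lower in Combo over Trikine (median 0.49), beside 3.97% and 2.43% of all genes, where the Ifitm genes were lower.

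**Figure D5:**
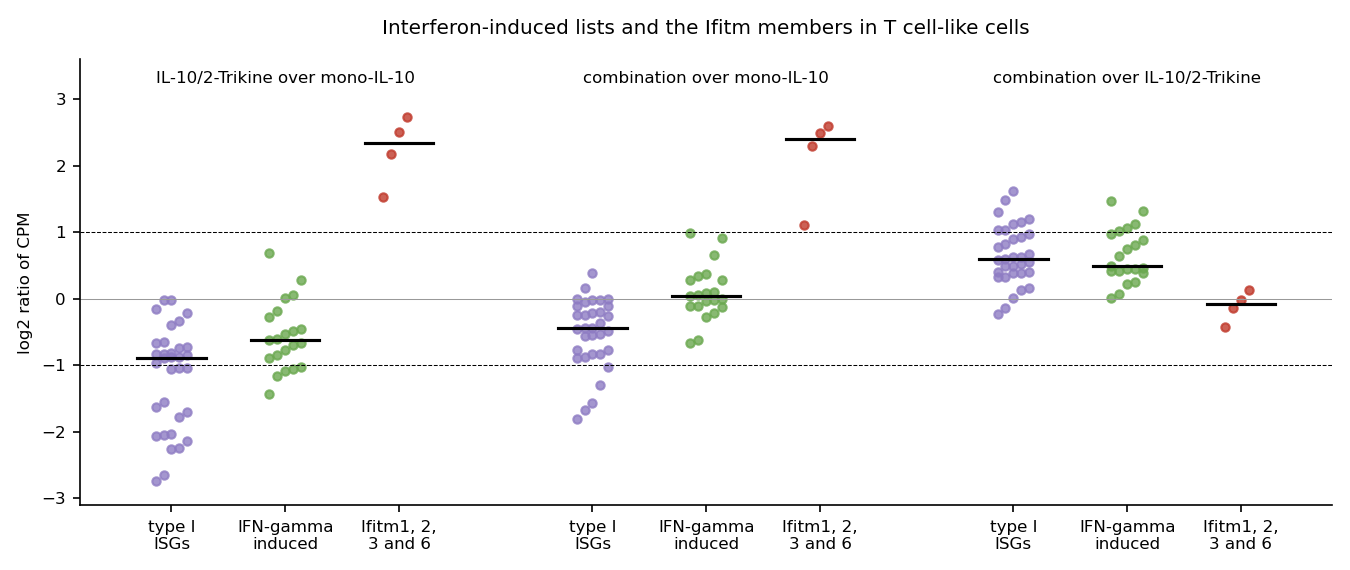
Log2 ratios of CPM in T cell-like cells for the type I interferon-stimulated genes, the interferon-gamma-induced genes and the 4 Ifitm genes (points, with black bars at the medians and dashed lines at 2-fold) in each comparison. The type I list had a median of −0.89 for Trikine over mono-IL-10 and 0.61 for Combo over Trikine, against 2.51 and −0.01 for Ifitm1.

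In T cell-like cells few genes of the cytokine pathways reached 2-fold. Of 21 IL-2/STAT5 response genes, 2 were at least 2-fold higher in T cell-like cells with Trikine, Socs2 (2.28), a feedback inhibitor of STAT5 signaling, and Il2ra (1.42), the IL-2 receptor alpha chain, and 0 were lower (median 0.03), beside 3.34% and 9.25% of all genes. With Combo over mono-IL-10, 3 were higher, Socs2 (2.08), Tnfrsf4 (1.31) and Il2ra (1.27), and 1 lower (median 0.26), beside 2.43% and 5.94% of all genes. Of 12 IL-10/STAT3 response genes 0 were higher and 2 lower with Trikine, Fos (−1.39) and Il10ra (−1.34), with a median of −0.25. In NK cell-like cells the same comparison had 3 IL-2/STAT5 genes higher, Il2ra (1.56), Ikzf4 (1.55) and Socs2 (1.41), and 6 lower, with a median of −0.59, beside 6.27% and 7.98% of all genes and a median of −0.13. Of the 12 IL-10/STAT3 genes 0 were higher and 6 lower there, with a median of −1.07, among them Fos (−2.21), Il10ra (−1.73) and the feedback inhibitor Socs3 (−1.55), which is in both lists. In T cell-like cells, of 6 Ly6 family genes, many of which interferon induces, 0 were higher and 2 lower with Trikine than with mono-IL-10 (median −0.29), beside 3.34% and 9.25% of all genes.

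Of the genes beside the cluster on the chromosome, the more expressed ones differed less than the members. They had T cell log2 ratios for Trikine over mono-IL-10 of 0.40 for Psmd13, a proteasome subunit, 0.40 for Pgghg, 0.31 for B4galnt4, 0.14 for Pkp3 and −0.21 for Sigirr, an inhibitor of interleukin-1 receptor signaling, and 0.68 for the less expressed Gm39114. Nlrp6, at 0.0217, 0.370 and 0.197 CPM in the mono-IL-10, Trikine and Combo libraries, went against this, with a Trikine over mono-IL-10 ratio of 17.1 (2.84 to 696) from 30 UMIs against 1. In NK cell-like cells the log2 ratio was 1.38 for B4galnt4 and 1.84 for Gm39114. Over 26 sums of a class and a library, the gene whose level across sums was most like that of Ifitm2 was Ifitm3 (Pearson r = 0.947 among 6750 genes), followed by Cdkn1a (0.907), the cell cycle inhibitor p21. Ifitm3 was in turn close to Ifitm6 (0.927). The nearest to Ifitm6 were Ly6i (0.950) and Slfn5 (0.937), and the nearest to Ifitm1 were S100a6 (0.835) and Vim (0.813), with Ifitm2 in the fifth place (0.762). Ifitm1 and Ifitm6 were the least alike of the members (0.545). These values describe classes that share libraries and free RNA. The last 300 bases of the members' transcripts shared 0 words of 50 bases, so that 3′ reads of that length could be told apart between them.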

How the data were processed

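Single-cell 3′ gene expression (Chromium v3.1) was measured in 3 libraries, and the deposited files are unfiltered matrices of whole UMI counts per gene and barcode that the authors made with Cell Ranger, given as 8.0.0 in the file headers while the study's methods name another version. Methods and labels name different genome builds, so no coordinates of the count files are given, and the promoter table's GRCm38.p6 is used for sequences alone. Counts were read with Python 3.11.15. Cells were barcodes that had 200 or more genes and no more than 20% of UMIs from mitochondria. They were scaled to 10000 UMIs, log-transformed and reduced to 2000 variable genes and 30 principal components, and clustered by Leiden (leidenalg 0.10.2, scanpy 1.11.5, resolution 1, no integration of libraries), which gave 22 clusters. A cluster was named "like" a type when at least 3 of that type's markers were both enriched and frequent. T cell-like cells were clustered again (resolution 0.8). Depth per library was 158570946, 197176873 and 175794959 UMIs.

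Summed UMIs per class and library were expressed as CPM with exact Poisson intervals, ratios with exact conditional binomial intervals and shares with Clopper-Pearson intervals. A ratio was given where both libraries together held at least 20 UMIs of the gene, and genes at 50 CPM or more in either library formed the background. On simulated Poisson counts drawn from a pooled profile the ratio step recovered the large changes put in. That simulation held counting error alone, so it says nothing of differences between libraries. No treatment test was possible with 1 library per group. Doublets stayed in the values given, since scrublet's own threshold marked 12.5% of mono-IL-10 barcodes and 0% of the others, and the highest-scoring barcodes were removed as an alternative. Normalization factors of edgeR 4.0.16 served as another scaling. Text names the 4 members, list genes at least 2-fold apart in T cell-like cells (up to 4 per direction and list), flanking genes and the genes nearest in pattern, of which the report prints the closest. Members and lists were chosen with earlier results of these data known.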

Additional observations from a re-analysis of the deposited data

Results flagged for a closer look

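Classes differed in the direction of Combo over Trikine for Ifitm1, with none of these differences tested, since each class had 1 library per treatment. The log2 ratio was −2.24 in NK cell-like and −1.60 in plasmacytoid DC-like cells, and 1.08 in ILC2-like and 1.32 in KP1 tumor cell-like cells, while T cell-like cells lay near 0. In NK cell-like cells 21303 of the 21732 Ifitm1 UMIs with Trikine lay in cells with a Cd3 UMI. Cells of the Cd3e-poor cluster without a Cd3 UMI kept the direction, at 46.0 CPM with Trikine and 27.1 CPM with Combo. The stricter gate on NK markers within the clusters reversed it, at 7.64 CPM with Trikine and 21.7 CPM with Combo, from 5 and 18 UMIs. In barcodes without a Cd3 UMI, plasmacytoid DC-like cells held 4 Ifitm1 UMIs in each of those libraries and ILC2-like cells 7 and 56. KP1 tumor cell-like barcodes were not divided in this way, and their clusters had Cd3e in 20.3% and 7.02% of barcodes. Their median depths were 1365, 9870.5 and 3273 UMIs in the mono-IL-10, Trikine and Combo libraries. The part of depth or of joint barcodes in the KP1 value was not tested. Ifitm6 for Combo over Trikine was 1.97 in ILC2-like and 1.01 in cDC2-like cells and −1.33 in KP1 tumor cell-like cells. Ifitm6 for Combo over mono-IL-10 was 1.11 in T cell-like and −1.52 in KP1 tumor cell-like cells, and the T cell value was −0.14 without cells holding a UMI of another lineage. The Ifitm6 ratios of ILC2-like cells rest on 9 Trikine and 14 Combo UMIs, and those of KP1 tumor cell-like cells on 18, 32 and 9 UMIs in the mono-IL-10, Trikine and Combo libraries.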

How the results depend on the processing

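In T cell-like cells the number of members at least 2-fold higher (4 for both comparisons with mono-IL-10 and 0 for Combo over Trikine) moved by less than 1.5 times under every alternative run. Beside these counts 3.34% of genes with at least 20 UMIs were higher for Trikine and 2.43% for Combo over mono-IL-10, and the counts are no support, since the former contrast chose the members and the latter shares its mono-IL-10 library. Leaving out cells with a UMI of another lineage kept only 1688, 1948 and 3040 T cell-like cells of the mono-IL-10, Trikine and Combo libraries. The log2 ratio of Ifitm6 then became −0.14 for Combo over mono-IL-10 and −1.43 for Combo over Trikine. For Trikine over mono-IL-10 those of Ifitm2 and Ifitm3 became 3.596 and 2.88. NK cell-like counts depended on how cells were chosen. With a marker gate per cell over all kept cells, 0 members were at least 2-fold higher for Trikine over mono-IL-10 (3 with clusters), 0 for Combo over mono-IL-10 (1) and 3 for Combo over Trikine (0, where all 3 were at least 2-fold lower), and the log2 ratios of Ifitm1, Ifitm2 and Ifitm3 were −4.58, −2.73 and −4.01 for Trikine over mono-IL-10 and 2.90, 1.40 and 2.45 for Combo over Trikine, with −1.68 for Ifitm1 in Combo over mono-IL-10. In that gate 5 cDC2-like barcodes held 63 Ifitm1, 43 Ifitm2 and 62 Ifitm3 UMIs of the Combo library, where NK cell-like cells held 18, 22 and 10. The same gate inside the NK cell-like clusters, added after seeing the data, gave 0 and 1 members higher for Trikine over mono-IL-10 and Combo over Trikine, with Ifitm1 at 1.51 in the latter. For Trikine over mono-IL-10 Ifitm1 and Ifitm3 were left with under 20 UMIs in both libraries together, too few for a ratio, and Ifitm2 had a log2 ratio of 0.98, so the 0 says little. For Combo over mono-IL-10, Leiden resolution 2 gave 2 members and leaving out cells with a UMI of another lineage 3. In the monocyte/macrophage-like class the 1 member past 2-fold for Trikine over mono-IL-10 was lost, leaving 0, with the highest-scoring doublets removed (a setting added after seeing the data) and with the marker gate. The cause of these shifts was not tested. With clusters, the shares of all genes at least 2-fold higher in NK cell-like cells were 3.84% for Trikine and 0.162% for Combo over mono-IL-10. For Combo over Trikine the share was 0.874%. In the monocyte/macrophage-like class it was 0.356% for Trikine over mono-IL-10. Shares of all genes under the alternative settings are not given, so nothing is read from the counts of members there. Weighting by T cell sub-clusters, subtraction of free RNA in NK cell-like strata, cycling within NK cell-like clusters and the division of rarer classes by a Cd3 UMI were also added after seeing the data. Of 282 values with a direction, 261 kept it over the alternatives. Removal of scrublet's own calls was not run, because it marked no barcode of Trikine and Combo. No paired analysis was possible because each group had 1 library and no treatment test was made. Ifitm6 in lymphocytes, ILC2-like and mast cell/basophil-like values are limited by few UMIs or cells.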

Other observations

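T cells were also divided by a UMI of Il2ra, the alpha chain of the IL-2 receptor. In Foxp3-negative CD4 cells with an Il2ra UMI the Ifitm2 level was 459, 1358 and 1134 CPM in the mono-IL-10, Trikine and Combo libraries, and without such a UMI it was 168, 1399 and 985 CPM. The Ifitm2 level with mono-IL-10 thus differed by Il2ra UMI, while the Trikine level hardly did. The ratio of Trikine over mono-IL-10 was 2.96 (2.77 to 3.17) in the former and 8.31 (7.80 to 8.87) in the latter, and the difference between them was not tested. Cells with an Il2ra UMI were deeper, with median depths of 7374, 12042 and 10283 UMIs against 3838, 3374 and 4038, and the part of depth in this split was not tested. In CD8 cells Ifitm1 was 144, 607 and 656 CPM with an Il2ra UMI and 102, 716 and 547 CPM without.

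The other Ifitm genes counted were Ifitm5, Ifitm7 and Ifitm10. In T cell-like cells Ifitm10 went the other way from the members, at 16.9, 7.68 and 7.83 CPM. Ifitm5, known from bone and lying beside Ifitm2 at the end of the gene cluster, was at 0.0217, 0.481 and 0.289 CPM, from 1, 39 and 22 UMIs. Ifitm7 was at 0.130, 0.0370 and 0.0525 CPM, from 6, 3 and 4 UMIs. Both genes were near the bottom of the scale.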
